A study of Homo sapiens with 7 samples.

Results

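The 40 genes described here encode amino acid and peptide transporters of the solute carrier (SLC) families. They were chosen by name, and every spot of the array that carried one of the names was taken, so 40 of the 36337 gene names on the array were members. Together they were measured by 59 probes, of which each was printed as 1 spot. 31 members are carriers of the plasma membrane, 6 are carriers of the lysosomal membrane (SLC15A3, SLC15A4, SLC36A1, SLC36A4, SLC38A7 and SLC38A9), and 3 were left without a location (SLC7A4, SLC38A6 and SLC38A10). These locations come from general knowledge of the proteins and not from the arrays.

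The study asked which stresses change transcription in the way that extra chromosomes do, and bafilomycin A1 was one of the stressors. Bafilomycin A1 blocks the V-ATPase, the proton pump that acidifies the lysosome. The cells were HCT116, a near-diploid human colon carcinoma line, here the H2B-GFP derivative, in which a core histone carries the fluorescent protein. All 4 samples analysed here received 10 nM of the drug for 30 h, were described as biological replicates, and were hybridised to 1 single-colour Agilent array each from 100 ng of total RNA, all on 1 slide. The 3 untreated samples of the same line were not analysed here, so no value below is a response to the drug. The values describe which transporters were measurable in treated cells and how closely the 4 arrays repeated them.

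Cells take up amino acids at their surface through carriers that are driven by sodium, by exchange for other amino acids or by facilitated diffusion. Several exchangers are dimers of a light chain from the SLC7 family, which transports, and the heavy chain SLC3A2 or SLC3A1, which brings it to the surface. Lysosomes release the amino acids and small peptides of digested protein through carriers of their own, several of which use the proton gradient that the V-ATPase builds. When amino acids run short, the transcription factor ATF4 raises the transcription of many surface carriers, whereas TFEB and TFE3 act on lysosomal genes through E-box sequences.

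Values are log2 of the background-subtracted signal minus the median of the array, summarised per gene as the median of its probes with a value on all 4 arrays. Levels of different probes cannot be compared with each other, because each probe binds with its own efficiency. Differences are therefore read between arrays within a probe or gene. A probe was called well above background by the scanner software, and detection of a gene required such a call on all 4 arrays for 1 or more of its probes. In RNA from whole cultures, fewer expressing cells and less RNA per cell cannot be told apart. The arrays were similar in the share of spots called, with between 55.6% and 60.4% of non-control spots well above background. Replicate 3 had 2249 outlying spots, against 514, 725 and 527 on replicates 1, 2 and 4. Of the epithelial markers, 7 of 8 were detected, namely EPCAM, KRT8, KRT18, KRT19, CDH1, CLDN4 and CLDN7, while VIL1 was well above background on 0 of 4 arrays. Markers of other cells were detected for 1 of 6 fibroblast genes (COL1A1), 4 of 6 leukocyte genes (PTPRC, CD3E, CD68 and ITGAM) and 2 of 4 endothelial genes (CDH5 and VWF).

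28 of the 40 transporters (70.0%) were detected. Of all gene names on the array, 52.5% were detected, and of those with a curated coding transcript (an NM_ accession) 70.8% were. The share among the transporters was thus close to that of curated coding genes. Of the plasma membrane carriers, 20 of 31 (64.5%) were detected, and of the lysosomal carriers, 5 of 6 (83.3%). All 3 members without a location were detected. With 6 lysosomal genes the 2 shares were set side by side without a test.

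12 transporters were not detected. 11 of them were well above background on 0 of 4 arrays: SLC1A2, a glutamate transporter of astrocytes; SLC3A1, the heavy chain that pairs with SLC7A9 in the kidney; SLC6A14 and SLC6A15, sodium-coupled carriers of neutral amino acids; the cationic carrier SLC7A3; the light chains SLC7A7, SLC7A9 and SLC7A10; the peptide transporter SLC15A2; the proton-coupled SLC36A2; and the neutral amino acid carrier SLC38A4. The pair SLC3A1 and SLC7A9, whose loss causes cystinuria, was thus not called on either side, SLC3A1 with 0 of 4 probes and SLC7A9 with 0 of 1 probe. A weaker flag of the software, for a signal that is positive and significant, was set on all 4 arrays for SLC3A1 and SLC7A9. It was set on 3 arrays for SLC1A2 and SLC38A4, and on 0 arrays for SLC6A14, SLC6A15 and SLC36A2. A gene without the stricter call could thus still have a signal above 0 by the weaker flag, and a missing call does not show that the transcript was absent. A call, in turn, does not by itself show expression, as 4 of 6 leukocyte markers were also called in this carcinoma line.

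**Figure D1:**
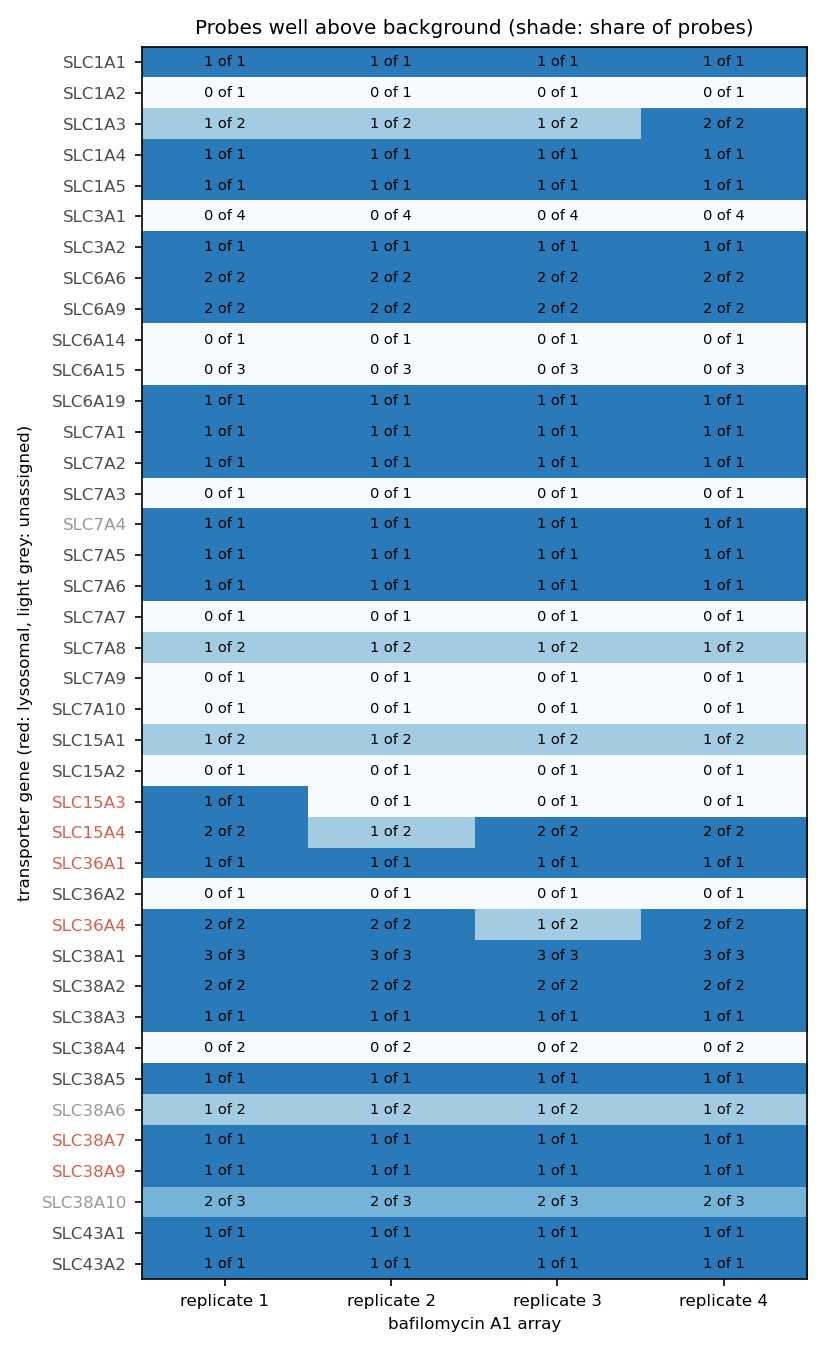
Number of probes well above background on each array (columns, replicates 1 to 4) for each of the 40 transporters (rows, lysosomal carriers in red, those without a location in light grey), with the shade giving the share of the probes of the gene. 28 genes have a called probe on all 4 arrays, SLC15A3 on replicate 1 only, and SLC15A4 on replicate 2 and SLC36A4 on replicate 3 each lack 1 probe whose spot was an outlier there.

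SLC15A3 was the lysosomal carrier that was not detected. It exports histidine and small peptides from the lysosome, as does SLC15A4. Its probe crosses a splice junction (GRCh37, minus strand, chr11:60704803-60705358) and is shown whole because both exons are needed to match it:

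SLC15A3 probe: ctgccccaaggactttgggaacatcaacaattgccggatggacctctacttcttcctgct

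This probe gave background-subtracted signals of 29.2, 17.4, 15.3 and 16.9 on replicates 1 to 4. The lowest signal that the software called well above background lay between 20.8 and 22.3 on the 4 arrays. Replicate 1 was therefore the array on which SLC15A3 was called, and the other 3 arrays lay under that bound. The weaker flag, for a positive and significant signal, was set for it on all 4 arrays, and by that flag 6 of 6 lysosomal carriers were detected.

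The 5 detected lysosomal carriers all had their highest value on replicate 3. SLC38A7, which exports glutamine from lysosomes, was at 2.86, 2.84, 3.49 and 2.71 on replicates 1 to 4 (mean 2.97 ± 0.35 SD, n = 4). SLC38A9, the arginine sensor that signals to mTORC1 at the lysosome, was at 3.93, 4.09, 4.55 and 3.88 (4.11 ± 0.30). Replicate 3 exceeded the mean of the other 3 arrays by 0.69 in SLC38A7 and by 0.58 in SLC38A9. The peptide and histidine carrier SLC15A4 was at 2.32, 2.35, 2.79 and 2.10 (2.39 ± 0.29). SLC36A1, which exports small neutral amino acids together with protons, was at 2.48, 2.92, 3.01 and 2.70 (2.78 ± 0.24). Its relative SLC36A4, which carries proline and tryptophan, was at 4.23, 4.38, 4.72 and 4.33 (4.41 ± 0.21). In SLC36A1 replicates 2 and 3 lay close together, whereas in SLC15A4 and SLC36A4 replicate 3 stood above the others.

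SLC15A4 and SLC36A4 each rest on 1 of their 2 probes, because the other probe was an outlying spot on 1 array. The second SLC15A4 probe gave signals of 845, 798 and 546 on replicates 1, 3 and 4, and the second SLC36A4 probe gave signals of 509, 555 and 442 on replicates 1, 2 and 4. The second SLC36A4 probe thus has no value on the array that stood apart. The 5 lysosomal carriers stayed highest on replicate 3 when the processed signal, quantile normalisation or centring over all probes was used, and also with outlying spots kept. Of all detected genes 48.7% were highest there in the main processing, and for the alternatives no such share is given here.

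Among the 20 detected plasma membrane carriers, 8 were highest on replicate 3 and 7 were lowest on it. Over all detected members 14 of 28 (50%) were highest there, against 48.7% of all detected genes, and 7 of 28 (25.0%) were lowest there, against 23.4% of all detected genes. The members as a whole thus followed the array in both directions. Over the 24633 probes well above background on all 4 arrays, the median difference of replicate 3 from the mean of the other arrays was 0.14, and after normexp and quantile normalisation it was 0.01. With this shift included, the lysosomal members lay between 0.31 and 0.69 above the other arrays, with a median of 0.54. The plasma membrane members lay between -1.14 and 0.81, with a median of -0.02 that turned to 0.02 with centring over all probes and to 0.10 with only probes well above background. After quantile normalisation the lysosomal median was 0.34 and the plasma membrane median -0.06.

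**Figure D2:**
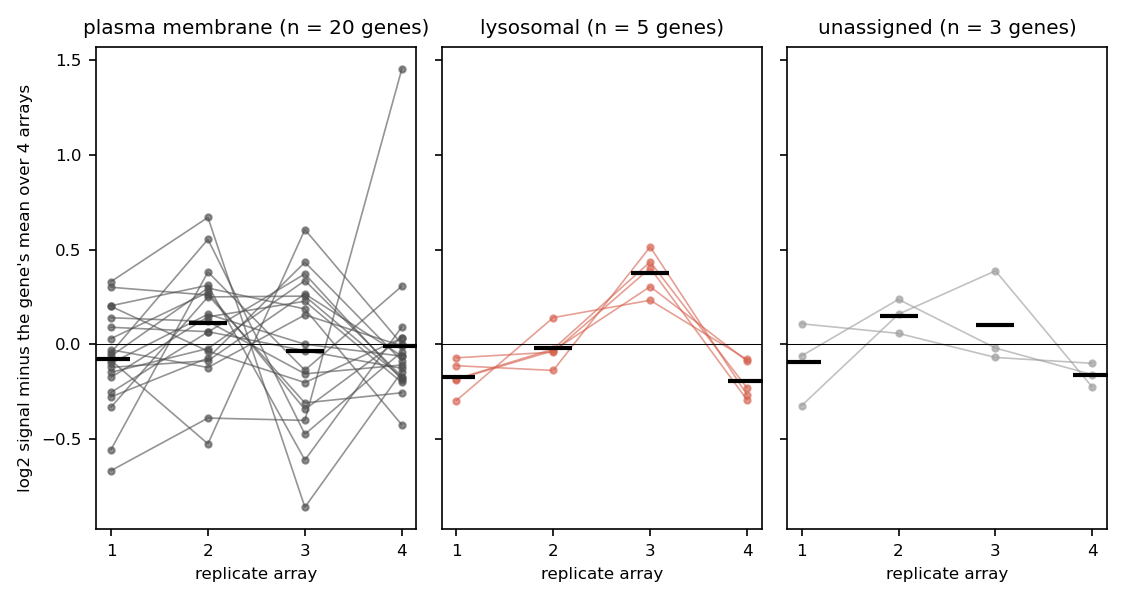
Log2 signal of each detected transporter minus its own mean over the 4 arrays (vertical axis) against the replicate array, by location, with 1 line per gene and the black bar giving the mean over genes. The 5 lysosomal genes peak on replicate 3 (mean deviation 0.38), the 20 plasma membrane genes go both ways there (mean deviation -0.03), and the plasma membrane line that reaches 1.45 on replicate 4 is SLC1A3.

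The other lysosomal carriers that are no members did not share this peak in full. CTNS, which exports cystine, was at 2.38, 2.17, 2.61 and 2.40, and PQLC2, which exports cationic amino acids, was at 12.06, 12.10, 12.20 and 12.17. SLC17A5, the sialic acid exporter, was at 4.81, 4.92, 4.91 and 4.68. Of SLC7A14, 1 of 4 probes was well above background, at -0.77, -0.63, -0.95 and -0.81, with replicate 3 lowest. CTNS and PQLC2 were highest on replicate 3, and SLC17A5 and SLC7A14 were not. With the processed signal or quantile normalisation, 1 of these 4 was highest there.

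The heavy chain SLC3A2 varied most between arrays among the members measured by probes that were well above background throughout. It was at 6.52, 6.85, 5.33 and 6.04 on replicates 1 to 4 (6.18 ± 0.66), so replicate 2 lay 2.88-fold above replicate 3. Replicate 3 was the lowest array, and replicate 4 lay between it and the other pair. Its single probe (GRCh37, plus strand, chr11:62652689-62652748) opens with these 30 of its 60 bases:

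SLC3A2 probe: atcctgagcctactcgaatccaacaaagac

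SLC7A5 is the light chain that joins SLC3A2 to carry leucine and other large neutral amino acids. It was at 6.45, 6.49, 6.84 and 6.51 (6.57 ± 0.18), with replicate 3 standing above the 3 others. In SLC7A5 replicate 3 differed from the mean of the other arrays by 0.36, and by 0.13 after quantile normalisation. In SLC3A2 these differences were -1.14 and -1.36. The SLC7A5 probe has 35.0% G and C, and all called probes with under 40% lay at a median of 0.33 on replicate 3. The log2 difference between SLC3A2 and SLC7A5 changed by 1.88, or 3.68-fold, between replicates 2 and 3. It was 3.62-fold after quantile normalisation and 3.74-fold with the processed signal. The span between SLC3A2 and the light chain SLC7A6 was 2.71-fold. SLC7A6, which exchanges cationic for neutral amino acids, was at -0.90, -0.54, -0.65 and -1.26 (-0.84 ± 0.32), with replicate 4 lowest. Its signals, from 26.5 to 48.3, were near background.

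The light chain SLC7A8, which carries neutral amino acids, had 1 of 2 probes well above background. That probe was at 1.60, 1.59, 2.67 and 1.57, and replicate 3 lay 2.14-fold above replicate 4 while the others were almost equal. The second probe gave signals of 9.18, 18.9, 8.99 and 9.59, under the background bound on all 4 arrays. The value of the gene, a median over both probes, was -0.40 ± 0.30 and describes neither probe. SLC7A11, which exchanges cystine for glutamate and is also a partner of SLC3A2, is not a member. It was at 5.89, 6.22, 6.43 and 5.96, with replicate 3 highest.

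**Figure D3:**
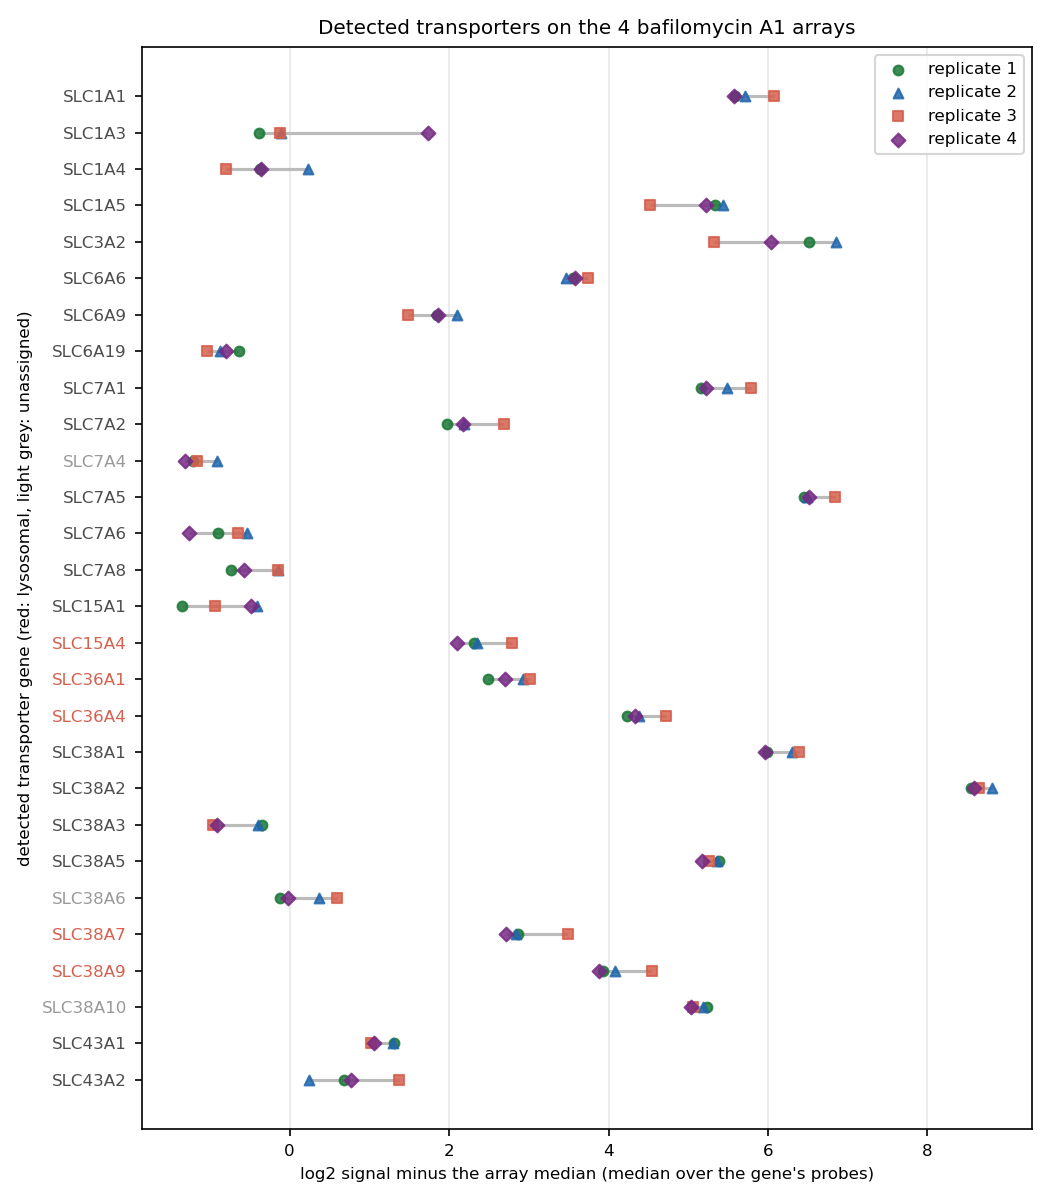
Log2 signal minus the array median (horizontal axis) of the 28 detected transporters on replicates 1 to 4, as the median over the probes of each gene, with a grey line from the lowest to the highest array. SLC3A2, SLC1A5 and SLC1A4 have replicate 3 as their lowest array, the 5 lysosomal carriers (red names) have it as their highest, and values of different genes cannot be compared with each other.

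Of the glutamate and neutral amino acid family SLC1, 4 of 5 members were detected. SLC1A5, the main glutamine carrier of many tumour cells, was at 5.33, 5.44, 4.52 and 5.22 (5.13 ± 0.42), with replicate 3 lowest. SLC1A4, which carries alanine, serine and cysteine, was at -0.37, 0.23, -0.80 and -0.36 (-0.32 ± 0.42), with replicate 2 highest and replicate 3 lowest. Its signals were weak, from 40.4 to 82.2, and its span of 2.04-fold was 1.37-fold after quantile normalisation. SLC1A1, a carrier of glutamate and aspartate, was at 5.59, 5.72, 6.07 and 5.57 (5.74 ± 0.23). SLC1A5 and SLC1A4 were thus lowest on the array on which SLC1A1 was highest.

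SLC1A3, the glutamate transporter of glia, was measured by 2 probes that differed. These are shown because the value of the gene turns on 1 of them, with the first 30 bases of each (GRCh37, plus strand, chr5:36609249-36609308 and chr5:36688204-36688263):

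SLC1A3 probe at chr5:36609249-36609308: acacagatctctttcattcattgctttgca

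SLC1A3 probe at chr5:36688204-36688263: gtggctgtcctcttaagacactagtagagc

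The first probe gave signals of 6.36, 8.24, 5.39 and 93.2 on replicates 1 to 4, and replicate 4 was the array on which it was called. The second probe, well above background on all 4 arrays, was at 2.82, 2.87, 3.46 and 2.90. The median over both was -0.39, -0.11, -0.12 and 1.73 (0.28 ± 0.98), so the high value of replicate 4 came from the first probe. Replicate 3 was the highest array in the second probe, as in the lysosomal carriers.

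Of the sodium- and chloride-coupled family SLC6, 3 of 5 members were detected. The taurine carrier SLC6A6 was at 3.56, 3.46, 3.74 and 3.58 (3.59 ± 0.12), a spread under that of most members. Its 2 probes had larger SDs on their own, 0.20 and 0.26. SLC6A9, a glycine carrier, was at 1.85, 2.10, 1.48 and 1.86 (1.82 ± 0.25) as a median over 2 probes that were both well above background. Its probe further towards the 3′ end (GRCh37, minus strand, chr1:44462162-44462221) was at 4.12, 4.20, 4.35 and 4.20. Its probe across a splice junction (minus strand, chr1:44466499-44466646) was at -0.42, -0.01, -1.39 and -0.49. This junction probe was weak, with signals of 57.6, 69.8, 26.7 and 45.1, and the lowest signal called on replicate 3 was 20.8. The first was highest on replicate 3 and the second lowest on it, with a log2 difference of -1.09 from the mean of the other arrays. The sequences are shown because the pair gave opposite orders for 1 transcript, the junction probe whole and the other by its first 30 bases:

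SLC6A9 probe at chr1:44462162-44462221: gcccattgtgcaccactaggattttaaagt

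SLC6A9 probe at chr1:44466499-44466646: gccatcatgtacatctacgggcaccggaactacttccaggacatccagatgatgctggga

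The bases G and C made up 35.0% of the first and 53.3% of the second. SLC6A19, the neutral amino acid carrier of gut and kidney, was at -0.63, -0.87, -1.03 and -0.80 (-0.83 ± 0.17). Its partner in the kidney, TMEM27, was at -0.25, -0.29, -0.17 and -0.32.

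Of the cationic carriers, SLC7A1, the widely expressed arginine and lysine carrier, was at 5.16, 5.48, 5.79 and 5.23 (5.41 ± 0.28). SLC7A2, which carries the same amino acids, was at 1.98, 2.18, 2.69 and 2.17 (2.26 ± 0.30). Both were highest on replicate 3 and lowest on replicate 1. SLC7A4, whose function is not settled, was at -1.21, -0.91, -1.17 and -1.31 (-1.15 ± 0.17).

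The peptide carrier SLC15A1, which takes up dipeptides and tripeptides in the gut, had 1 of 2 probes well above background. That probe was at 1.94, 2.08, 1.98 and 2.11, with an SD of 0.08 (n = 4), and its 4 arrays lay within 1.13-fold. The other probe was called on 0 of 4 arrays and lay between -4.63 and -2.91. The value of the gene over both probes was -0.79 ± 0.43. In SLC15A1 the SD of the gene thus exceeded that of the called probe, whereas in SLC7A8 it was smaller than the SD of 0.54 of its called probe.

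Of the sodium-coupled neutral family SLC38, 8 of 9 members were detected. SLC38A2, which is induced by amino acid shortage, was at 8.54, 8.80, 8.64 and 8.58 (8.64 ± 0.11). SLC38A5, a carrier of glutamine and asparagine, was at 5.39, 5.37, 5.26 and 5.17 (5.30 ± 0.10), from a probe that crosses a splice junction. SLC38A10 was at 5.24, 5.19, 5.06 and 5.03 (5.13 ± 0.10) over 2 probes, and its remaining probe was called on 0 of 4 arrays. These had the 3 smallest SDs of the detected members, with all 4 arrays within 1.20-fold. The 2 probes of SLC38A2 had larger SDs on their own, 0.14 and 0.17. SLC38A1, which carries glutamine, was at 5.99, 6.30, 6.39 and 5.96 (6.16 ± 0.22), and its 3 probes were all well above background. Replicate 3 lay above the other arrays by 0.78, 0.30 and 0.03 in these probes, in order of their start on the chromosome. SLC38A3, a glutamine carrier of liver and kidney, was at -0.35, -0.39, -0.96 and -0.91 (-0.65 ± 0.33), with replicates 1 and 2 above replicates 3 and 4. SLC38A6 had 1 of 2 probes well above background, at 4.58, 4.71, 4.82 and 4.77, and the other lay between -4.81 and -3.63.

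The facilitative carriers SLC43A1 and SLC43A2, which move large neutral amino acids without an ion gradient, were both detected. SLC43A1 was at 1.31, 1.29, 1.02 and 1.06 (1.17 ± 0.15). SLC43A2 was at 0.68, 0.24, 1.37 and 0.77 (0.77 ± 0.46), and its highest array lay 2.19-fold above its lowest. The SLC43A2 probe holds AATAAA, the polyadenylation hexamer, and is shown around it in capitals (GRCh37, minus strand, chr17:1477702-1477761), with the same stretch of the probe of SLC36A1 (plus strand, chr5:150871862-150871921):

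SLC43A2 probe: tttttataaagcAATAAAtccattttcctc

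SLC36A1 probe: tatgttaagctttttcttttcAATAAAtga

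The hexamer was found in 4 of the 59 member probes (6.78%), those of SLC36A1, SLC43A2, SLC6A19 and 1 of SLC38A6, against 7.88% of all 50599 probes. In this respect the members were close to the array as a whole.

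**Figure D4:**
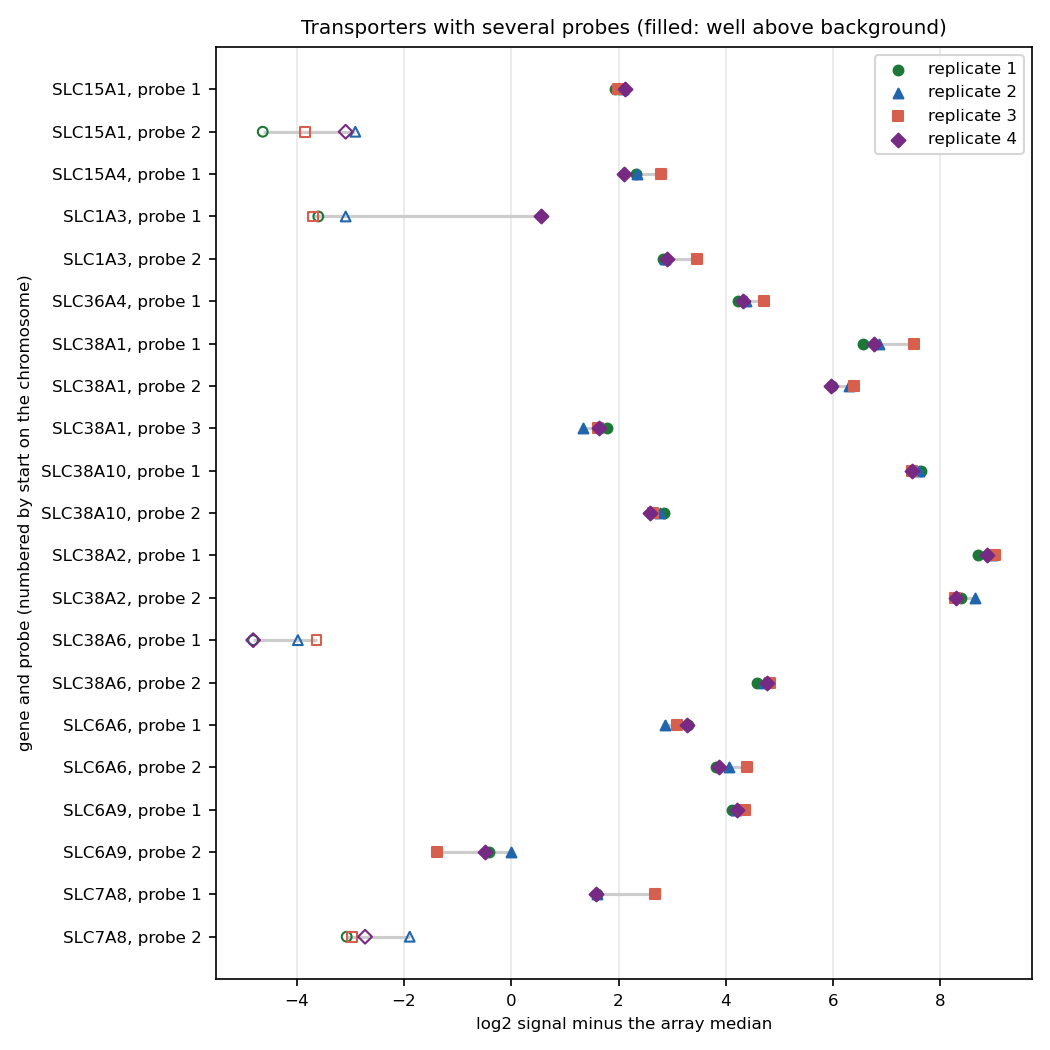
Log2 signal minus the array median (horizontal axis) on replicates 1 to 4 for each probe with 4 values of the transporters that have several probes and at least 1 detected one, numbered by start on the chromosome. Filled symbols were well above background, and the probes of SLC1A3, SLC7A8, SLC15A1, SLC38A6 and SLC6A9 differ in their calls or in the order of their arrays.

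Of the 14 members with several probes, 4 had all of them well above background on all arrays (SLC6A6, SLC6A9, SLC38A1 and SLC38A2), 7 had some, and 3 had none (SLC3A1, SLC6A15 and SLC38A4). The 2 SLC6A6 probes, of which 1 crosses a splice junction, were at 3.30, 2.86, 3.08 and 3.28 and at 3.82, 4.06, 4.40 and 3.87. Their order of arrays differed, and so did that of the 2 SLC38A2 probes, of which 1 was highest on replicate 2 and 1 on replicate 3. In both genes the median over probes therefore had a smaller SD than either probe.

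Over the 28 detected members the median SD between arrays was 0.29 on the log2 scale, with a range from 0.10 to 0.98, against 0.20 over all detected genes. The 0.98 is that of SLC1A3, whose probe called on all arrays had an SD of 0.30. The median was 0.29 both for the plasma membrane and for the lysosomal carriers. The highest and the lowest array lay more than 1.4-fold apart, the threshold the study used for a changed gene, in 19 of 28 members (67.9%), against 42.9% of all detected genes. Of the plasma membrane carriers 13 of 20 did so, and of the lysosomal carriers 5 of 5. Some of these values include a probe near background. With only probes well above background, the median SD over members was 0.25 and 17 of 28 spanned more than 1.4-fold. For that setting no share over all genes is given here. Without replicate 3 the median SD was 0.14 over the members and 0.14 over all detected genes. The members spanning more than 1.4-fold were then 8 of 28 (28.6%), against 18.7% of all detected genes, and the lysosomal ones 0 of 5. After normexp and quantile normalisation 6 of 28 (21.4%) spanned more than 1.4-fold, against 14.0% of all detected genes. One array stood apart by Dixon's ratio in 2 of 28 members, SLC1A3 and SLC7A5, against 7.19% of all detected genes.

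The means over detected members lay at -0.09, 0.10, 0.05 and -0.06 from their common mean on replicates 1 to 4. The SD of these 4 means was 0.09, and it was 0.018 after quantile normalisation, which sets all arrays to 1 distribution. The 7 members known as targets of ATF4 (SLC3A2, SLC7A5, SLC7A1, SLC38A2, SLC1A4, SLC1A5 and SLC6A9) were all detected. 5 of these 7 were highest on replicate 2, against 25.3% of all detected genes, and 4 were lowest on replicate 3, against 23.4%. These counts rest on medians over probes, and in SLC38A2 and SLC6A9 the 2 probes disagreed. In each of them 1 probe was highest on replicate 3. The targets are few and were not tested as a group. Their mean lay at 0.01, 0.28, -0.23 and -0.05 from the mean over arrays, and SLC7A5 and SLC7A1 ran against it with their highest value on replicate 3. The median difference of replicate 3 in these targets was -0.46, -0.54 with the processed signal and -0.19 after quantile normalisation. The -0.46 is the value of SLC6A9, whose 2 probes lay at 0.18 and -1.09. The -1.09 is that of the probe across a splice junction, which lay near background on replicate 3.

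The base content of the probes moved with the difference of replicate 3. Over the 34 member probes that were well above background on all arrays, Spearman's rho between the share of G and C and that difference was -0.49, and over the 24633 probes of the whole array it was -0.44. Both are descriptions across probes that share the same 4 arrays. The 12 member probes with under 40% G and C lay at a median of 0.40, the 12 with 40% to 50% at 0.21 and the 10 with 50% or more at -0.08. Single members departed from this order. The SLC38A7 probe, with 55.0% G and C, lay 0.69 above the other arrays, and the SLC3A2 probe, with 45.0%, lay at -1.14. The part of base content in the differences was not tested.

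**Figure D5:**
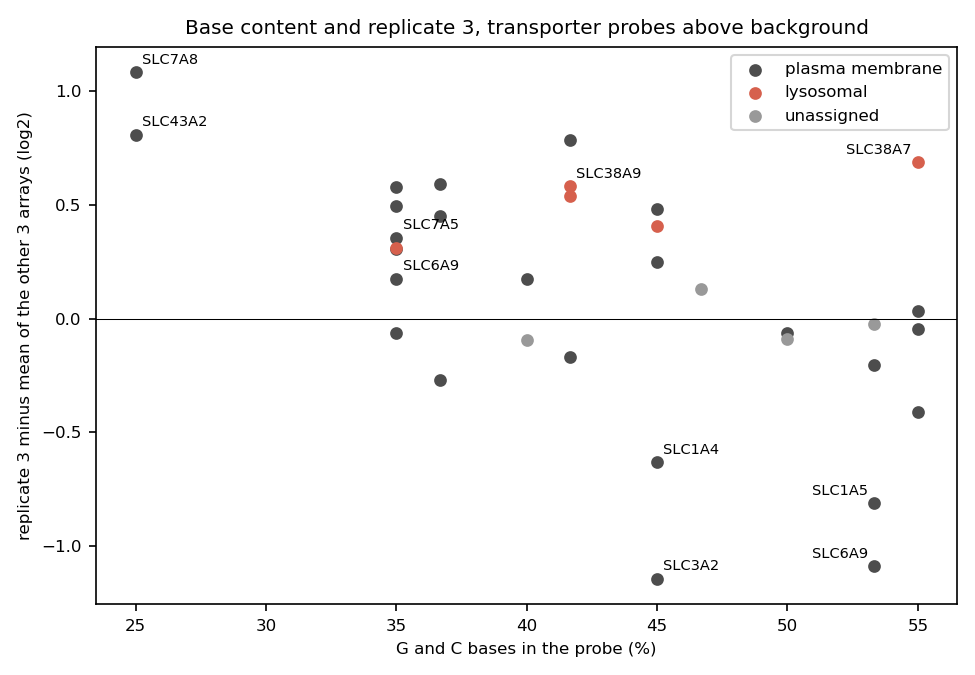
Difference of replicate 3 from the mean of the other 3 arrays on the log2 scale (vertical axis) against the share of G and C bases in the probe (horizontal axis, %), for the 34 transporter probes well above background on all arrays, coloured by location. Probes with fewer G and C bases lie higher (rho -0.49), SLC38A7 lies at 0.69 with 55.0% G and C, and SLC3A2, SLC1A5, SLC1A4 and 1 SLC6A9 probe lie lowest.

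The promoters were searched for the letters of the ATF4 element (TGATGNAA, where N is any base) and for the E-box CACGTG that TFEB and TFE3 bind, on both strands. The windows run from 250 bases before to 50 bases after a transcription start and come from RefSeq (GRCh38.p14). They were found for 31 of the 40 members, with 52 starts in all, and SLC1A2, SLC3A1, SLC6A6, SLC6A15, SLC7A2, SLC7A3, SLC7A4, SLC15A3 and SLC38A3 were not matched. The ATF4 letters lay in 6 of 52 member windows (11.5%), against 3.62% of all 35116 windows. 4 of these 6 belong to members known as ATF4 targets, and all 6 stretches are shown, with the match in capitals:

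SLC3A2 at chr11:62881725-62881748 (plus strand): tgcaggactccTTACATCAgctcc

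SLC1A5 at chr19:46784893-46784922 (minus strand): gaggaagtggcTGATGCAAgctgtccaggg

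SLC1A4 at chr2:64989381-64989410 (plus strand): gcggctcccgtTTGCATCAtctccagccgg

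SLC7A1 at chr13:29595663-29595692 (minus strand): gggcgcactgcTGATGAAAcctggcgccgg

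SLC1A3 at chr5:36596357-36596386 (plus strand): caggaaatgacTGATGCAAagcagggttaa

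SLC38A1 at chr12:46266502-46266531 (minus strand): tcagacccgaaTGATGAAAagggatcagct

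SLC3A2 and SLC1A4 hold the letters on the opposite strand, read as TTNCATCA. Of the genes with the letters, SLC3A2, SLC1A5 and SLC1A4 were lowest on replicate 3, and SLC7A1 and SLC38A1 were highest on it. The SLC1A3 probe that was called on all arrays was also highest on replicate 3. SLC7A5, SLC38A2 and SLC6A9 have no match in these windows.

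The E-box lay in 8 of 52 member windows (15.4%), against 7.26% of all windows, and in 2 of the 10 windows of lysosomal members. The windows of SLC36A1 and SLC38A7 are shown, as the lysosomal members with a match, with the E-box in capitals:

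SLC36A1 at chr5:151447549-151447578 (plus strand): gctcaagggagCACGTGacctcggcctctg

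SLC36A1 at chr5:151447584-151447613 (plus strand): ggcggtgggatCACGTGatgaggtccggaa

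SLC38A7 at chr16:58684738-58684767 (minus strand): tgatgcatgctCACGTGtctccgcagccgg

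SLC36A1 holds the E-box at 2 places in 1 window, and the second lies just upstream of the start. The other members with a match were SLC1A5, SLC7A5, SLC7A7, SLC7A8, SLC38A5 and SLC43A1, all 6 of the plasma membrane. The windows shown for the 2 motifs overlap in 0 cases. A match is a row of letters and not a binding site, and no factor was measured.

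Other amino acid carriers were counted beside the members. Of 13 further plasma membrane carriers, 7 were detected (SLC1A7, SLC6A5, SLC6A18, SLC7A11, SLC16A10, SLC38A8 and SLC43A3), and of 8 mitochondrial carriers, 7 (SLC25A12, SLC25A13, SLC25A15, SLC25A22, SLC25A29, SLC25A38 and SLC25A44). These shares were 53.8% and 87.5%, against 52.5% of all gene names and 70.8% of those with an NM_ accession. Of the 7 detected plasma membrane carriers, 2 (28.6%) were highest and 3 (42.9%) lowest on replicate 3, against 48.7% and 23.4% of all detected genes. The mean of these carriers lay 0.05 above its average there. Of the 7 detected mitochondrial carriers, 6 were highest on replicate 3, against 48.7% of all detected genes, and their mean lay 0.23 above its average there.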

How the data were processed

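Gene expression of 4 bafilomycin A1-treated cultures was measured on single-colour Agilent arrays. The authors deposited scanner intensity values on a linear scale, written by Feature Extraction 10.7.3.1 (per the labels and file headers) and not normalised between arrays. Probe coordinates in the files are GRCh37. As in the study's methods, log2 of the background-subtracted intensity was taken, each array was centred on its median and probes were summarised per gene by their median. Leaving out control and outlying spots, and using only probes above 0 on all 4 arrays, are steps added here. The members and gene lists were chosen with earlier results of these data known. All members are named, undetected ones by their calls. No test between conditions was run, and the number of arrays limits the precision. Dixon's ratio (critical value 0.829 for 4 values) marked single arrays apart. Alternatives were the processed signal at the 75th percentile, normexp (offset 50) with quantile normalisation in limma 3.58.1, other probe and detection rules, and each array left out. Counts of members highest or lowest on replicate 3, and its differences, were added after seeing the data. The scripts were tested on simulated data. Python 3.11.15 and R 4.3.3 were used.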

Additional observations from a re-analysis of the deposited data

Results flagged for a closer look

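Of 28 detected transporters and 3 means over members, 2 had 1 array far from the other 3, and chance flags about 1 in 20 groups. In SLC1A3 replicate 4 lay apart, with a Dixon ratio of 0.869, through a probe with a signal of 93.2 on that array and between 5.39 and 8.24 on the others. In SLC7A5 replicate 3 lay apart, with a Dixon ratio of 0.845, at 6.84 against 6.45 to 6.51, a span of 1.31-fold.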

How the results depend on the processing

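The detection counts of all members and of plasma membrane members stayed within 1.5 times under every alternative, while the lysosomal count of 5 became 3 with the median flag over probes and 6 with the positive and significant flag. SLC15A4 and SLC36A4 dropped out with the median flag because an outlying spot counts as not called. With outlying spots kept, those spots gave signals of 733 on replicate 2 and 638 on replicate 3. Normexp with quantile normalisation moved the median SD to 0.13 for all detected members, 0.13 for plasma membrane and 0.18 for lysosomal members, the members spanning more than 1.4-fold to 6 and the SD of the mean to 0.018. The SD of the mean became 0.054 with the processed signal, 0.073 with probes above 0 on each array and 0.13 with the array median over all probes. The members with 1 array apart became 7, 4, 4 and 4 under the processed signal, quantile normalisation, probes above 0 on each array and the array median over all probes, and 1 with the median flag. For these settings no share over all detected genes is given here, so the counts are not read as particular to the members. With 1 array left out, the median SD ranged from 0.14 to 0.28 for all members, from 0.15 to 0.29 for plasma membrane and from 0.11 to 0.34 for lysosomal members, the members spanning more than 1.4-fold from 8 to 17 and the SD of the mean from 0.073 to 0.10. The lowest of the SD medians and the 8 belong to replicate 3 left out. The sign of the replicate 3 difference held in 27, 26 and 27 of 28 members under the processed signal, quantile normalisation and the array median over all probes, with SLC38A2 and SLC7A4 as the exceptions, both with differences close to 0, and with only probes well above background SLC1A3 turned from -0.53 to 0.59. The causes were not tested. No paired analysis was possible because the untreated samples were not analysed here, and 1 group has no partner to pair. Weak probes near background limit the values of SLC1A3, SLC7A8, SLC15A1 and SLC38A6. Weak but called were the probes of SLC7A4, SLC7A6, SLC6A19, SLC38A3 and SLC1A4 and 1 probe of SLC6A9. Their signals lay between 25.6 and 82.2, against 20.8 to 22.3 for the lowest signal called, which limits these values as well.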
